A study of Caenorhabditis elegans with 6 samples.

Results

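Core and linker histone genes were described across 6 Affymetrix arrays of whole wild-type N2 Caenorhabditis elegans. They were taken as every probe set whose deposited gene symbol begins with his- or hil-, with the probe set of highest mean signal kept where a symbol had several. This gave 49 genes, from 66 probe sets, of the 26975 gene names on the tested part of the array. They comprised 9 linker histone H1 genes, 10 H2A genes, 9 H2B genes, 6 H3 genes, 5 genes of the H3.3 type and 10 H4 genes. All 49 entered every test, because no filter on low signal was used.

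Worms in the first of the 3 groups were given 100 µM Ponceau Red and those in the second 100 µM tartrazine, both synthetic azo dyes used as food colorants. Worms in the third were given water. Per the labels' protocols, exposure in S medium lasted 48 h at 20 °C and began 16 to 18 h after hatching, and every group is labelled as 3-day-old young adults. Each group had 2 arrays, and 3.5 ng of total RNA went into each labelled cDNA. Arrays carry the first number of their column names: Ponceau Red arrays 2 and 3, tartrazine arrays 1 and 2, and water arrays 1 and 2. The labels call the trials independent but do not say what made them so, so the p-values below measure the spread between these 6 arrays.

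Histones are the proteins around which DNA is wound. A nucleosome holds pairs of the core histones H2A, H2B, H3 and H4, and the linker histone H1 sits where DNA enters and leaves it. Most core histone genes lie in clusters of near-identical copies and are transcribed mainly while DNA is replicated. Their mRNAs end in a stem-loop that the stem-loop-binding protein recognises. Replacement histones such as H3.3 are made outside replication and are put into chromatin by their own chaperones. In an adult hermaphrodite worm most dividing cells are in the germ line, and oocytes store histones for the embryo.

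Copies of a histone class cross-hybridise on this array, and a reading cannot be assigned to 1 copy. The deposited annotation assigns the probe sets of 15 of the 49 symbols to more than 1 gene, and this is a lower count because that annotation is cut short in the file. Among them are his-14 with his-10, his-12 with his-43 and his-46 with his-56, while his-54 shares its probe set with the noncoding gene K06C4.21. Of 12 symbols with several probe sets, 10 had identical readings on all of them. The H2A genes his-47 and his-57 had the same reading on every array, so the 49 symbols hold 48 distinct readings. The RefSeq table of assembly WBcel235 lists 80 histone genes of these names, of which 31 had no probe set of their own here and 12 of those 31 are named in the assignments. No member was marked for cross-hybridisation in the deposited annotation.

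Values are log2 RMA signals, on which a difference of 1 is a doubling. With so few arrays precision is limited, and the median 95% interval over the tested probe sets reached 0.65 log2 to either side. Array medians were 2.14 and 2.19 in Ponceau Red, 2.22 and 2.14 in tartrazine and 2.41 and 2.36 in water. Centring each array on its median therefore adds 0.22 to each log2 difference between Ponceau Red and water and 0.20 to each between tartrazine and water. On the deposited scale, the 27568 tested probe sets had a median difference of 0.06 log2 in Ponceau Red and of 0.02 log2 in tartrazine. Histone signals ran from 1.46 to 11.38, and 10 of the 49 genes (5 H2A, 1 H3 and 4 H4) reached within 1 log2 of the highest signal in the table, 11.65. Whether those readings are compressed was not tested.

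The 2 Ponceau Red arrays stood apart from each other, and the yolk gene vit-2, which is switched on in adults, separated the 6 arrays. It read 10.76 and 1.83 in Ponceau Red arrays 2 and 3, 9.64 and 9.99 in tartrazine and 1.75 and 2.22 in water. All 3 high readings are on arrays labelled with a colorant, and both water arrays and Ponceau Red array 3 read low for animals labelled as young adults. The mean signal of the 20 genes of the germ line list was 5.81 and 2.35 in Ponceau Red, 5.88 and 5.91 in tartrazine and 2.92 and 2.67 in water. Ponceau Red array 2 read above both water arrays for 19 of these 20 genes, against 40.5% of all tested probe sets, and array 3 for 3 of them, against 47.3%. The part of stage or germ line content in the histone differences was not tested, and in whole animals fewer cells of a type and less RNA per cell cannot be told apart.

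The histone readings of the same 2 Ponceau Red arrays differed by more than 2-fold for 15 of 49 genes, against 23.96% of all tested probe sets. No histone gene differed that much between the tartrazine arrays, against 2.90% of all tested probe sets. Between the water arrays 1 did, against 1.64%. For 21 of 49 genes the Ponceau Red arrays lay on opposite sides of the water mean, which held for 36.7% of all tested probe sets. Water array 1 read above water array 2 for 44 of 49 histone genes, against 48.3% of all tested probe sets, by a median of 0.33 log2 over the histones.

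**Figure D1:**
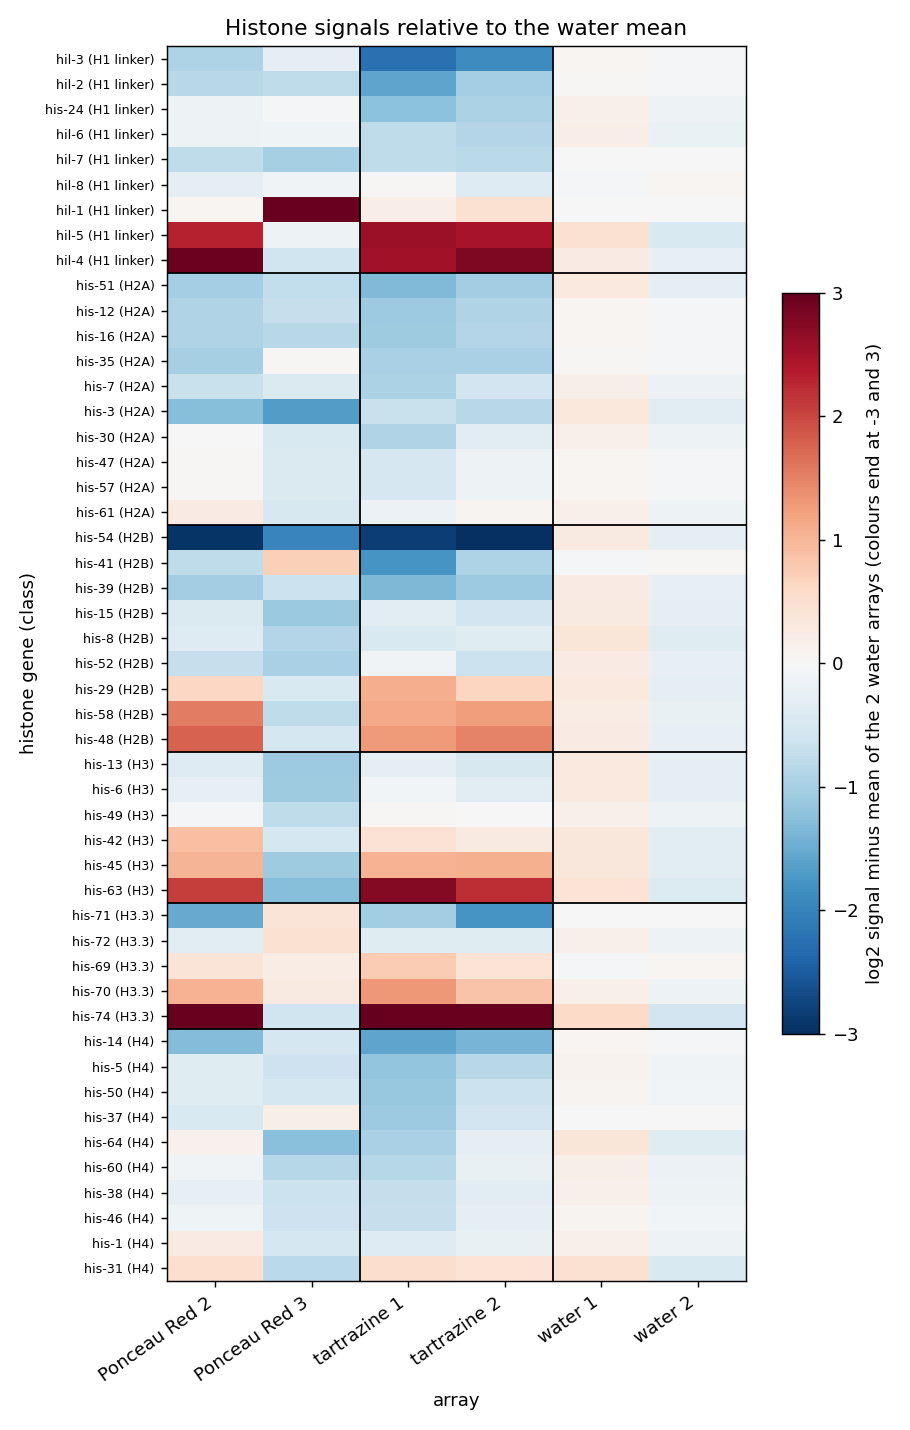
Colour gives the log2 signal of each of the 49 histone genes (rows, by class) minus the mean of the water arrays, on each of the 6 arrays (columns); colours end at -3 and 3. Most H2A and H4 rows are blue on both tartrazine arrays, while his-74, his-63, hil-4 and hil-5 are red on Ponceau Red array 2 and both tartrazine arrays and not on Ponceau Red array 3.

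The first comparison, tartrazine against water, asked which histone transcripts differ after this colorant. The linker histone gene hil-3, the H2A gene his-16 and the H2B gene his-54 fell, and no histone gene rose, at an adjusted p under 0.05. The 3 that fell of 49 stand beside 3.86% of all tested probe sets called lower, and the 0 that rose beside 0.519% called higher, so both shares are near the background. At an unadjusted p under 0.05 the count was 20 of 49, against 28.6% of all tested probe sets. The median histone difference was -0.46 log2 (35 negative, 14 positive). It was -0.26 log2 after centring and -0.89 log2 in the series matrix table, a second deposited set of signals for the same groups. There, 11 histones fell, against 9.6% of all tested probe sets. The labels do not say whether its columns are the same arrays as those numbered here. Both tartrazine arrays lay below both water arrays for 29 of 49 genes, against 34.3% of all tested probe sets, and above them for 11, against 33.7%. Every count here is from limma across all probe sets.

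All 6 arrays share 1 estimate of each gene's spread in this fit, the Ponceau Red pair included. On the 4 tartrazine and water arrays alone, 27 histone genes passed, among them all 3 above. Of these, 9 were higher (18.4% of 49, against 16.1% of all tested probe sets) and 18 lower (36.7%, against 19%). No histone gene, and no other probe set, passed without water array 1, water array 2, tartrazine array 1 or tartrazine array 2. Each of these fits leaves 1 array in a group, and the median histone difference ranged from -0.69 to -0.27 log2.

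**Figure D2:**
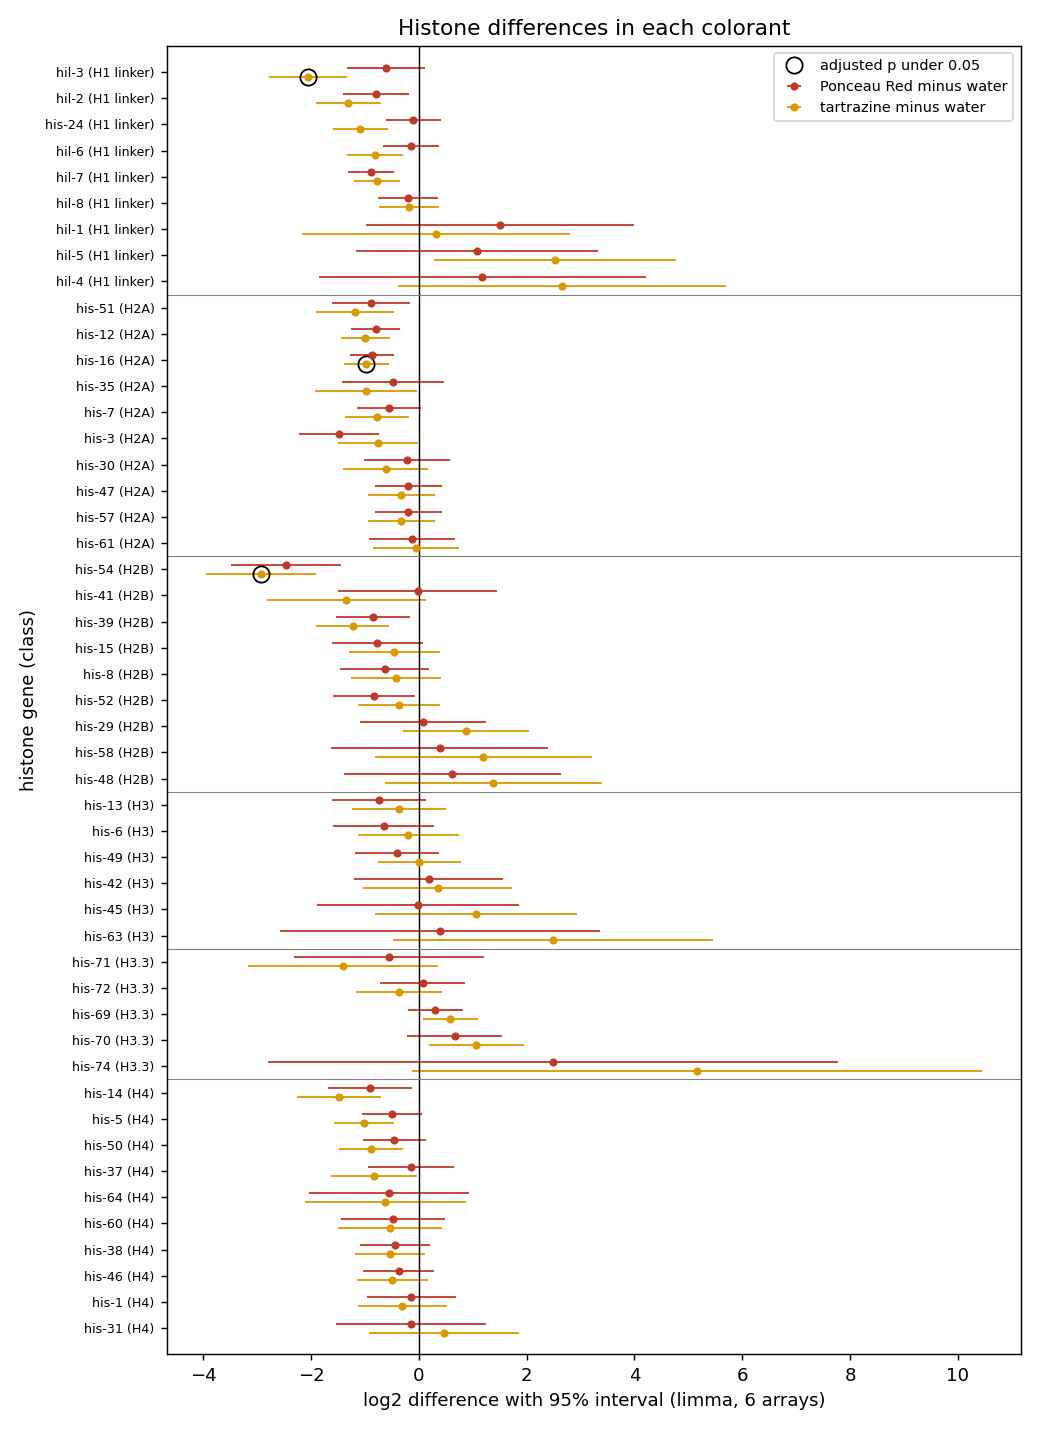
Points give the log2 difference from water in Ponceau Red and in tartrazine for each of the 49 histone genes (rows, by class), bars the 95% intervals of the limma fit on 6 arrays, and rings an adjusted p under 0.05. The rings are on hil-3, his-16 and his-54 in tartrazine; the widest bars are those of his-74, hil-4 and his-63.

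Linker histones bind the DNA between nucleosomes, and worms carry his-24 and 8 hil genes. In tartrazine 1 of the 9 fell and none rose, against 3.86% and 0.519% of all tested probe sets, and the class median was -0.78 log2. hil-3 read 4.58 and 5.22 in Ponceau Red, 3.27 and 3.61 in tartrazine and 5.55 and 5.45 in water. Both tartrazine readings are below all 4 others, and the difference from water was -2.06 ± 0.28 log2 (SE, n = 2 arrays per group; limma adjusted p = 0.03). With an intensity trend in the moderation its adjusted p was 0.053.

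The gene his-24 encodes a linker histone with a known role in silencing genes in the germ line. It read 5.09 and 5.19 in Ponceau Red, 4.02 and 4.29 in tartrazine and 5.39 and 5.09 in water. Only the tartrazine arrays are apart, by -1.09 ± 0.20 log2 from water (adjusted p = 0.0572, and 0.00691 on the 4 tartrazine and water arrays alone). hil-2 read 4.63 and 4.69 in Ponceau Red, 3.87 and 4.43 in tartrazine and 5.50 and 5.41 in water, lower on all 4 colorant arrays. Its tartrazine difference was -1.30 ± 0.23 log2 (adjusted p = 0.0573).

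Another pair of linker genes ran the other way. hil-4 read 5.84 and 2.30 in Ponceau Red, 5.40 and 5.69 in tartrazine and 3.13 and 2.65 in water. hil-5 read 4.33 and 1.87 in Ponceau Red, 4.60 and 4.49 in tartrazine and 2.48 and 1.55 in water. Both were high on the tartrazine arrays and on Ponceau Red array 2, while Ponceau Red array 3 read with the water arrays. The tartrazine differences were 2.66 ± 1.17 log2 for hil-4 (adjusted p = 0.215) and 2.53 ± 0.86 log2 for hil-5 (adjusted p = 0.148), and on the 4 arrays alone the adjusted p was 0.000341 and 0.00139.

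hil-1 was high on a single array. It read 4.11 and 7.02 in Ponceau Red, 4.25 and 4.50 in tartrazine and 4.05 and 4.06 in water, so that Ponceau Red array 3 stood 2.96 log2 above the water mean and array 2 stood 0.05 above it. The remaining linker genes hil-6, hil-7 and hil-8 read between 1.76 and 3.29 on every array. Of these, hil-7 read 1.99 and 1.76 in Ponceau Red, 2.00 and 1.96 in tartrazine and 2.75 and 2.77 in water, below water on all 4 colorant arrays. Its differences were -0.89 ± 0.16 log2 in Ponceau Red (adjusted p = 0.0784) and -0.78 ± 0.16 log2 in tartrazine (adjusted p = 0.0743). hil-6 differed by -0.82 ± 0.20 log2 in tartrazine (adjusted p = 0.0961) and hil-8 by -0.18 ± 0.21 log2 (adjusted p = 0.632).

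H2A pairs with H2B on the outer face of the nucleosome. All 10 H2A genes read lower on average than water in each colorant on the deposited scale, with class medians of -0.51 log2 in Ponceau Red and -0.76 log2 in tartrazine. After centring the arrays, 7 of 10 were negative in Ponceau Red and 9 of 10 in tartrazine. By the test, 1 of 10 fell in tartrazine, against 3.86% of all tested probe sets, and 0 changed in Ponceau Red, against 2.89%. At an unadjusted p under 0.05 there were 6 of 10 in tartrazine, against 28.6%, and 4 of 10 in Ponceau Red, against 14.9%. On the 4 tartrazine and water arrays alone, 5 of 10 fell, against 19%, and none rose, against 16.1%.

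his-16 read 10.39 and 10.45 in Ponceau Red, 10.22 and 10.40 in tartrazine and 11.35 and 11.23 in water. The 4 colorant readings lie close together and all below water. The difference was -0.98 ± 0.16 log2 in tartrazine (adjusted p = 0.0481) and -0.87 ± 0.16 log2 in Ponceau Red (adjusted p = 0.0802). The tartrazine call was lost after centring, with an adjusted p of 0.082, and among probe sets above the median signal, with 0.086.

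The H2A gene his-3 had the largest difference of its class in Ponceau Red. It read 7.68 and 7.26 in Ponceau Red, 8.28 and 8.10 in tartrazine and 9.26 and 8.64 in water, lowest in Ponceau Red on both arrays. The difference was -1.48 ± 0.29 log2 in Ponceau Red (adjusted p = 0.0894) and -0.75 ± 0.29 log2 in tartrazine (adjusted p = 0.172). In tartrazine the class ran from -1.18 ± 0.28 log2 for his-51 (adjusted p = 0.0906) to -0.05 ± 0.31 log2 for his-61 (adjusted p = 0.936). The shared reading of his-47 and his-57 was 11.04 and 10.57 in Ponceau Red, 10.50 and 10.84 in tartrazine and 11.05 and 10.94 in water, among the brightest of all histones, a difference of -0.33 ± 0.24 log2 in tartrazine.

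H2B genes did not read in 1 direction. Of 9, 1 fell in tartrazine and none rose, against 3.86% and 0.519% of all tested probe sets. There were 6 negative and 3 positive differences, with a class median of -0.42 log2. On the 4 tartrazine and water arrays alone, 3 were higher, against 16.1%, and 3 lower, against 19%. In Ponceau Red 0 of 9 passed, against 2.89%, with 3 at an unadjusted p under 0.05, against 14.9%. The class median there was -0.64 log2.

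his-54 had the largest difference below water of all 49 genes. It read 3.62 and 4.58 in Ponceau Red, 3.74 and 3.54 in tartrazine and 6.85 and 6.29 in water. The highest colorant reading, on Ponceau Red array 3, is below the lower water reading. The difference was -2.93 ± 0.39 log2 in tartrazine (7.63-fold lower; adjusted p = 0.0294) and -2.47 ± 0.39 log2 in Ponceau Red (adjusted p = 0.0552). The tartrazine call was lost with the labelled trial as a replicate block on the series matrix table, with an adjusted p of 0.065. This probe set is assigned to the noncoding gene K06C4.21 as well, while a further probe set assigned to his-54 and its neighbour his-52 read 7.89 and 7.62 in Ponceau Red, 8.48 and 7.95 in tartrazine and 8.84 and 8.34 in water. That reading, kept under the name his-52, differed by -0.37 ± 0.29 log2 in tartrazine (adjusted p = 0.454).

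The H2B genes his-48 and his-58 read above water on Ponceau Red array 2 and on both tartrazine arrays. his-48 read 9.75 and 7.45 in Ponceau Red, 9.25 and 9.48 in tartrazine and 8.21 and 7.74 in water. his-58 read 10.58 and 8.27 in Ponceau Red, 10.18 and 10.28 in tartrazine and 9.26 and 8.81 in water. In both, Ponceau Red array 3 was the lowest of the 6 arrays. The tartrazine differences were 1.38 ± 0.77 log2 for his-48 (adjusted p = 0.305) and 1.196 ± 0.77 log2 for his-58 (adjusted p = 0.369), and on the 4 arrays alone the adjusted p was 0.00402 and 0.00579.

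H3 carries the tail on which many chromatin marks are written. None of the 6 H3 genes passed, against 2.89% of all tested probe sets in Ponceau Red and 0.519% higher and 3.86% lower in tartrazine. None had an unadjusted p under 0.05, against 14.9% of all tested probe sets in Ponceau Red and 28.6% in tartrazine. The class median was 0.18 log2 in tartrazine and -0.21 log2 in Ponceau Red. Both medians depend on the scale: the series matrix table gave -0.02 log2 in tartrazine, and centring gave 0.01 log2 in Ponceau Red. Ponceau Red array 3 read below both water arrays for all 6 H3 genes, against 34.9% of all tested probe sets. Array 2 did so for 1 of the 6, against 44.4%.

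his-63 had the widest range of the class. It read 8.26 and 4.89 in Ponceau Red, 8.94 and 8.40 in tartrazine and 6.59 and 5.77 in water. Ponceau Red array 2 is close to the tartrazine arrays and array 3 is below the water arrays. The tartrazine difference was 2.49 ± 1.14 log2 (adjusted p = 0.229, and 0.0017 on the 4 tartrazine and water arrays alone). At the other end, his-13 differed by -0.37 ± 0.33 log2 in tartrazine (adjusted p = 0.514) and his-49 by 0.01 ± 0.30 log2 (adjusted p = 0.986).

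The H3.3 type replaces H3 outside DNA replication. None of the 5 genes passed, against 2.89% of all tested probe sets in Ponceau Red and 0.519% higher and 3.86% lower in tartrazine. At an unadjusted p under 0.05 there were 0 in Ponceau Red, against 14.9% of all tested probe sets, and 2 in tartrazine, against 28.6%. Class medians were 0.31 log2 in Ponceau Red and 0.58 log2 in tartrazine. his-74 read 8.14 and 1.99 in Ponceau Red, 7.74 and 7.72 in tartrazine and 3.15 and 2.00 in water. The 3 high and 3 low arrays are the same as for vit-2. Its tartrazine difference was the largest of all 49 genes, 5.16 ± 2.03 log2, with an adjusted p of 0.182, and 0.000175 on the 4 arrays alone.

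his-71, a replacement H3.3 gene, ran against his-74. It read 5.84 and 7.75 in Ponceau Red, 6.31 and 5.58 in tartrazine and 7.37 and 7.33 in water. The tartrazine arrays and Ponceau Red array 2 were below the water arrays, and Ponceau Red array 3 was the highest of all. The tartrazine difference was -1.41 ± 0.68 log2 (adjusted p = 0.247, and 0.00797 on the 4 tartrazine and water arrays alone). The other replacement H3.3 gene, his-72, read 6.55 and 7.33 in Ponceau Red, 6.52 and 6.50 in tartrazine and 7.02 and 6.72 in water, a tartrazine difference of -0.36 ± 0.30 log2 (adjusted p = 0.482).

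The neighbouring H3.3-type genes his-69 and his-70 read low on all arrays. his-70 read 2.67 and 1.89 in Ponceau Red, 2.91 and 2.47 in tartrazine and 1.78 and 1.46 in water, higher on all 4 colorant arrays. Its tartrazine difference was 1.07 ± 0.34 log2 (adjusted p = 0.136). his-69 differed by 0.58 ± 0.20 log2 in tartrazine (adjusted p = 0.147).

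H4 binds H3 at the centre of the nucleosome. All 10 H4 genes had negative differences in Ponceau Red and 9 of 10 in tartrazine on the deposited scale, with class medians of -0.45 and -0.58 log2. After centring, 7 of 10 in Ponceau Red and 9 of 10 in tartrazine were negative. No H4 gene passed, against 2.89% of all tested probe sets in Ponceau Red and 0.519% higher and 3.86% lower in tartrazine. At an unadjusted p under 0.05 there were 1 in Ponceau Red, against 14.9% of all tested probe sets, and 4 in tartrazine, against 28.6%. On the 4 tartrazine and water arrays alone 4 were lower, against 19%, and none higher, against 16.1%. his-14 read 10.03 and 10.80 in Ponceau Red, 9.73 and 9.94 in tartrazine and 11.38 and 11.26 in water, lower on all 4 colorant arrays. The difference was -1.49 ± 0.30 log2 in tartrazine (adjusted p = 0.0694) and -0.90 ± 0.30 log2 in Ponceau Red (adjusted p = 0.268).

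The single positive H4 difference in tartrazine was that of his-31, 0.47 ± 0.53 log2 (adjusted p = 0.609). It read 7.14 and 5.85 in Ponceau Red, 7.18 and 7.05 in tartrazine and 7.10 and 6.19 in water, with water array 2 and Ponceau Red array 3 low. his-46 differed by -0.49 ± 0.25 log2 in tartrazine (adjusted p = 0.269) and his-1 by -0.31 ± 0.32 log2 (adjusted p = 0.567).

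**Figure D3:**
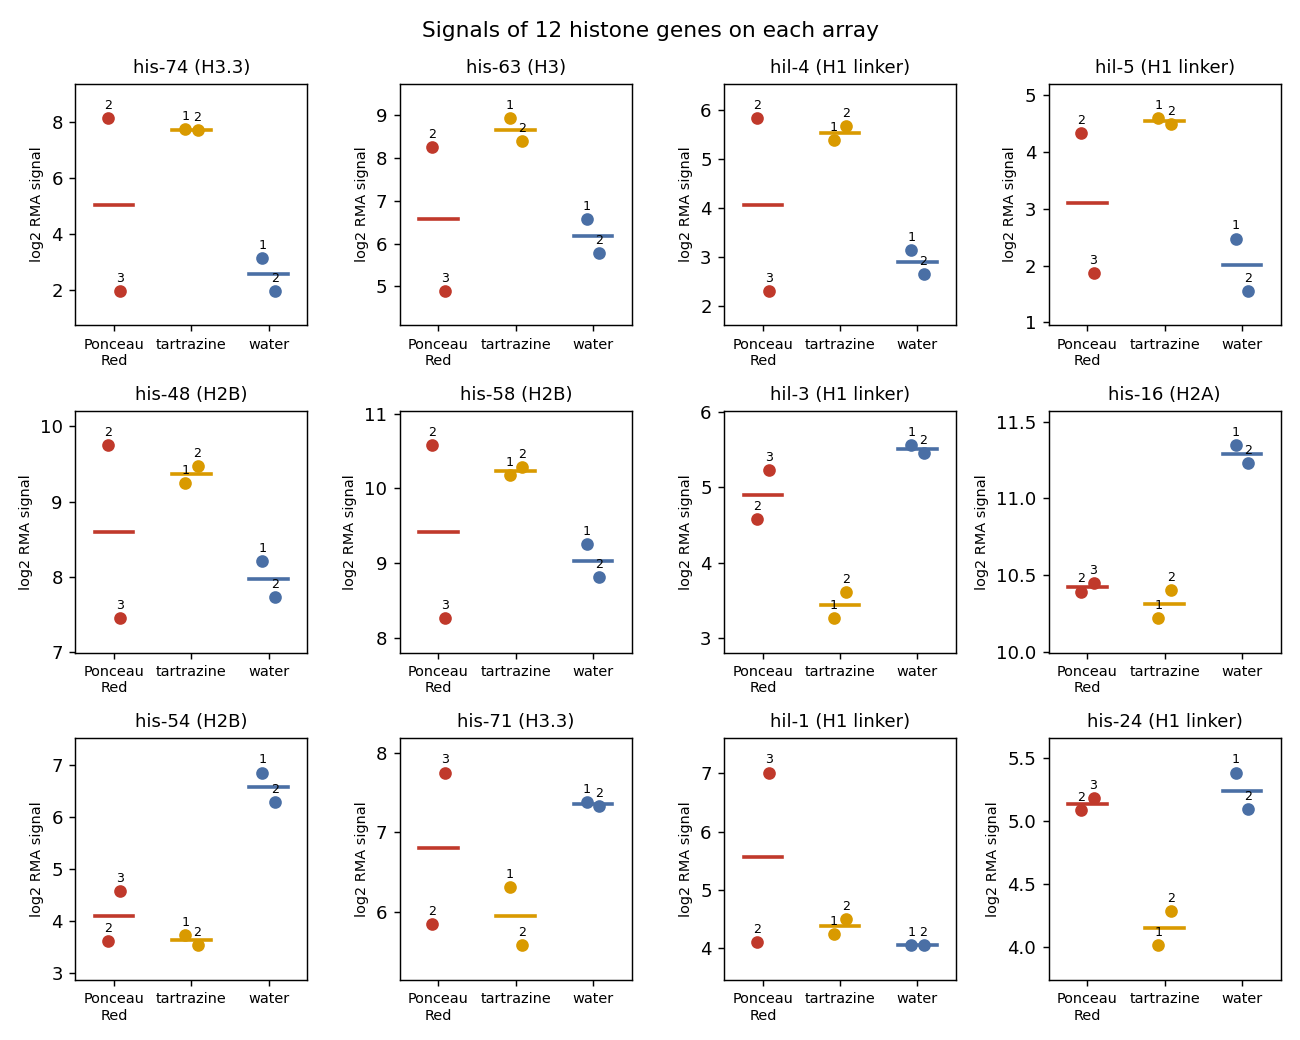
Each panel gives the log2 RMA signal of 1 histone gene on every array (points, with the array's number) and the group mean (line), for Ponceau Red, tartrazine and water. In his-74, his-63, hil-4, hil-5, his-48 and his-58 Ponceau Red array 2 sits with the tartrazine arrays and array 3 at or below water, while his-16 and his-54 are below water on all 4 colorant arrays.

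The same question was asked of the other dye by comparing Ponceau Red with water. No histone gene passed, against 2.89% of all tested probe sets, and 10 of 49 had an unadjusted p under 0.05, against 14.9%. The median histone difference was -0.37 log2, with 37 negative and 12 positive, and 26 negative after centring. The lowest adjusted p among the members was 0.0552, for his-54. Both Ponceau Red arrays lay below both water arrays for 20 of 49 genes, against 23.1% of all tested probe sets. Both lay above them for hil-1, his-69 and his-70, 3 of 49 against 24.8%.

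Array by array, Ponceau Red array 3 read below both water arrays for 38 of 49 histones, against 34.9% of all tested probe sets. Array 2 did so for 26, against 44.4%, tartrazine array 1 for 31, against 40.9%, and tartrazine array 2 for 33, against 45.4%. Fits that keep 1 Ponceau Red array take their spread from the tartrazine and water pairs alone and assume that the kept array varies as those do. With array 2 alone, 7 histones were higher (14.3% of 49, against 13.1% of all tested probe sets) and 10 lower (20.4%, against 13.1%). The 7 were hil-4, hil-5, his-48, his-58, his-63, his-70 and his-74. With array 3 alone, only hil-1 was higher (against 4.99% of all tested probe sets) and hil-7, his-3 and his-54 were lower (against 6.38%).

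Ponceau Red and tartrazine were given at the same dose for the same time, which made 1 pair of compounds to compare. No histone gene differed between them, and no other probe set did, at an adjusted p under 0.05. At an unadjusted p under 0.05 the histones were hil-3, his-24 and hil-6, 3 of 49 against 4.51% of all tested probe sets. The differences of Ponceau Red minus tartrazine were 1.46 ± 0.28 log2 for hil-3 (95% interval 0.74 to 2.19; limma adjusted p = 0.681), 0.99 ± 0.20 log2 for his-24 and 0.68 ± 0.20 log2 for hil-6. For his-74 the difference was -2.66 ± 2.03 log2 with a 95% interval of -7.95 to 2.62, so that this design bounds it only loosely. For his-16 it was 0.11 ± 0.16 log2 with an interval of -0.31 to 0.53. Without Ponceau Red array 2, and so again with the spread of the tartrazine and water pairs alone, 9 histones were higher in Ponceau Red and 8 lower, against 14.7% and 13% of all tested probe sets.

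Chromosome and class separated the tartrazine differences of the core genes, a description made after the values were seen. The 3 H2B genes on chromosome IV (his-29, his-48 and his-58) differed from water by 0.87 to 1.38 log2, and the 2 H3 genes there (his-45 and his-63) by 1.06 to 2.49 log2. All 5 differences were positive after centring and in the series matrix table as well. None of the 5 passed in the limma fit on 6 arrays (adjusted p from 0.229 to 0.390). All 5 were higher on the 4 tartrazine and water arrays alone, against 16.1% of all tested probe sets. Relative to the water mean, all 5 stood at 0.63 to 2.08 log2 on Ponceau Red array 2 and at -1.29 to -0.47 log2 on array 3. The 5 H2B genes on chromosome V (his-8, his-39, his-41, his-52 and his-54) differed by -2.93 to -0.37 log2. Of these, 3 were lower on the 4 tartrazine and water arrays alone, against 19% of all tested probe sets. Of all 15 core genes on chromosome V, 14 had negative tartrazine differences, or 13 after centring and 15 in the series matrix table. Of the 13 on chromosome IV 7 did, or 6 after centring, and of the 6 on chromosome II 5 did.

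Within some chromosome IV clusters, H2B or H3 genes read apart from neighbours of other classes. The cluster that holds his-45, his-46, his-47 and his-48 had tartrazine differences from -0.49 log2 for his-46 to 1.38 log2 for his-48. In it the H2A gene his-47, at -0.33 log2, read near the H4 gene his-46. In the pair his-63 and his-64, the H3 gene differed by 2.49 ± 1.14 log2 and the H4 gene by -0.62 ± 0.57 log2. On chromosome V, all 5 genes of the cluster of his-5, his-6, his-7, his-8 and his-39 were negative, from -1.22 to -0.20 log2, except his-6 after centring. Because copies cross-hybridise, the members of a class are not independent readings.

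**Figure D4:**
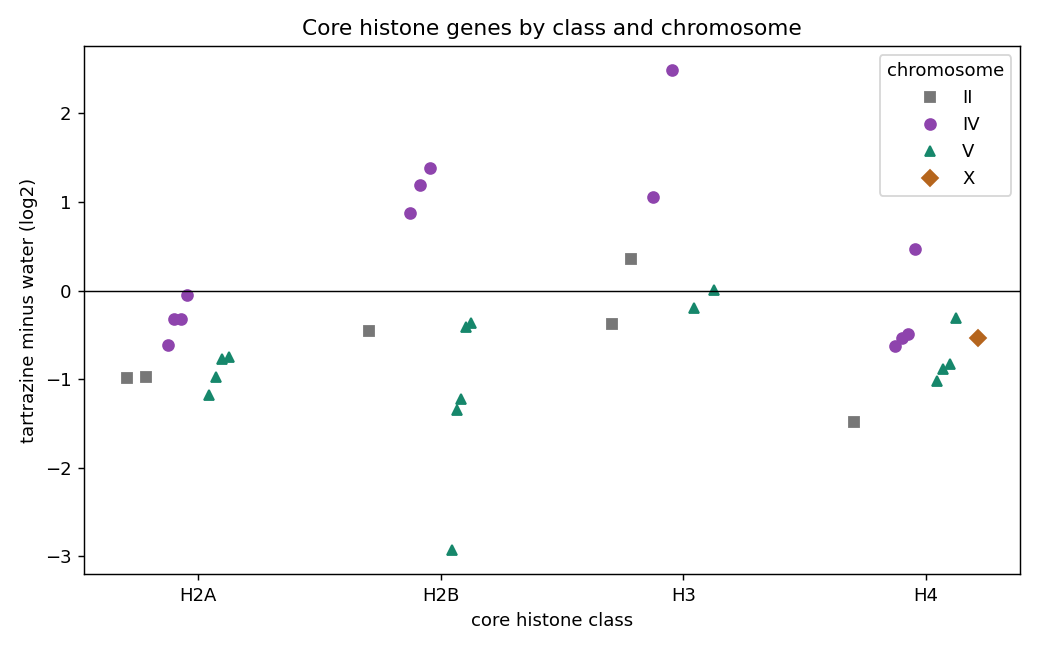
Points give the tartrazine minus water log2 difference of the 35 core histone genes, by class along the axis and by chromosome in marker and colour. The 5 H2B and H3 genes of chromosome IV lie between 0.87 and 2.49, above all other H2B and H3 genes.

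Genes that work with histones were read beside them. The histone variants not named his- or hil- are htz-1 (H2A.Z) and the centromeric H3 genes hcp-3 and cpar-1. hcp-3 read 8.13 and 4.97 in Ponceau Red, 7.98 and 7.63 in tartrazine and 5.12 and 4.70 in water. cpar-1 read 7.17 and 1.81 in Ponceau Red, 6.37 and 7.27 in tartrazine and 2.48 and 2.65 in water. In all 3 variants both tartrazine arrays were above both water arrays, against 33.7% of all tested probe sets, with a median difference of 2.90 log2. On all 6 arrays 0 of 3 passed in either colorant. That stands beside 2.89% of all tested probe sets in Ponceau Red, and 0.519% higher and 3.86% lower in tartrazine. On the 4 tartrazine and water arrays alone 3 of 3 were higher, against 16.1%.

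Of 14 genes for histone mRNA processing and histone chaperones, 0 passed in either colorant. That stands beside 2.89% of all tested probe sets in Ponceau Red, and 0.519% higher and 3.86% lower in tartrazine. At an unadjusted p under 0.05 there were 2 in Ponceau Red, against 14.9% of all tested probe sets, and 8 in tartrazine, against 28.6%. The median tartrazine difference was 1.54 log2, and 12 of 14 were higher on the 4 tartrazine and water arrays alone, against 16.1%. All 14 read above both water arrays on Ponceau Red array 2 and on tartrazine arrays 1 and 2, against 40.5%, 46.6% and 40.5% of all tested probe sets. On Ponceau Red array 3, 5 of the 14 did so, against 47.3%. cdl-1, the stem-loop-binding protein of histone mRNAs, read 8.42 and 5.78 in Ponceau Red, 7.99 and 8.09 in tartrazine and 6.96 and 6.65 in water. asfl-1, a histone H3 and H4 chaperone, read 7.35 and 1.94 in Ponceau Red, 7.54 and 7.75 in tartrazine and 2.89 and 2.41 in water. The tartrazine difference of asfl-1 was 4.999 ± 1.76 log2 (adjusted p = 0.154).

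Of the 34 measured genes of DNA replication, 0 passed in either colorant. That stands beside 2.89% of all tested probe sets in Ponceau Red, and 0.519% higher and 3.86% lower in tartrazine. At an unadjusted p under 0.05 there were 0 in Ponceau Red, against 14.9% of all tested probe sets, and 12 in tartrazine, against 28.6%. The median tartrazine difference was 1.92 log2. On the 4 tartrazine and water arrays alone 31 of 34 were higher, against 16.1%, and 0 lower, against 19%. pcn-1, the sliding clamp of the replication fork, read 7.68 and 4.85 in Ponceau Red, 7.65 and 7.32 in tartrazine and 5.51 and 5.18 in water. It was high on Ponceau Red array 2 and both tartrazine arrays, and 32 of the 34 were above both water arrays on both tartrazine arrays, against 33.7% of all tested probe sets. On Ponceau Red array 2 the replication list stood a median of 2.12 log2 above the water mean and on array 3 at -0.45, while the 49 histones stood at -0.24 on array 2 and -0.59 on array 3. On the tartrazine arrays the replication list stood at 2.00 and 1.95 and the histones at -0.50 and -0.37. The difference between the lists was not tested.

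Among enzymes that modify histones, met-2, a histone H3 methyltransferase, rose in tartrazine. It read 4.26 and 4.16 in Ponceau Red, 4.37 and 5.01 in tartrazine and 2.57 and 3.06 in water, higher on all 4 colorant arrays, and differed by 1.88 ± 0.30 log2 (adjusted p = 0.0443). It was the 1 gene of 18 for histone methylation and demethylation that passed in tartrazine. mys-1, a histone acetyltransferase of the MYST family, also rose, by 1.55 ± 0.25 log2 (adjusted p = 0.0464), 1 of 12 genes for histone acetylation and deacetylation. It read 5.27 and 4.64 in Ponceau Red, 5.46 and 5.49 in tartrazine and 3.88 and 3.97 in water. The tartrazine calls, 1 of 18 and 1 of 12, stand beside 0.519% of all tested probe sets called higher and 3.86% called lower. No gene of either list passed in Ponceau Red, against 2.89% of all tested probe sets. At an unadjusted p under 0.05 there were 7 of 18 and 3 of 12 in Ponceau Red, against 14.9%. Fits without a water array or a tartrazine array leave 1 array in a group. They lost the tartrazine calls of every gene, as given above, so they show nothing particular to met-2 or mys-1.

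**Figure D5:**
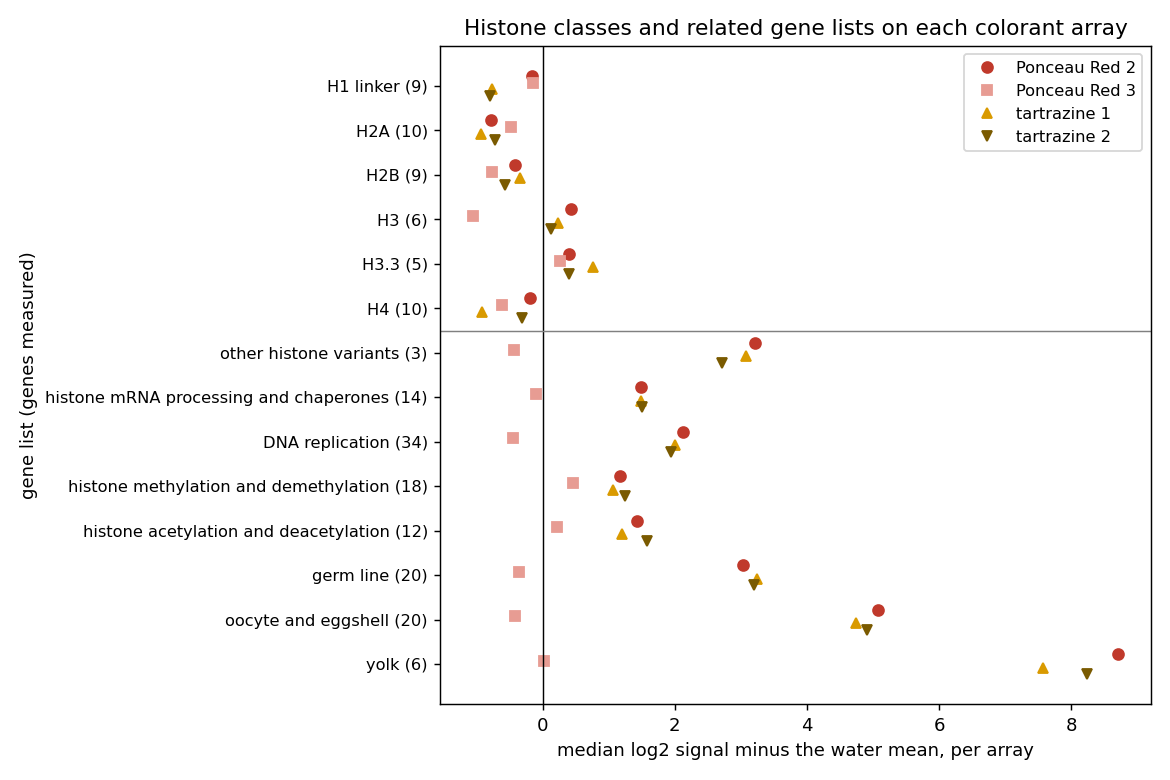
Markers give, for each colorant array, the median log2 signal minus the water mean over the histone classes and over 8 related gene lists (genes measured in brackets). On Ponceau Red array 2 and the tartrazine arrays the replication, germ line, oocyte and yolk lists lie right of 0 and the H1, H2A, H2B and H4 classes left of it, while Ponceau Red array 3 lies between -1.06 and 0.45 throughout.

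Marker lists of tissues were read on the same arrays. The 20 oocyte and eggshell genes stood a median of 5.08 log2 above the water mean on Ponceau Red array 2, at -0.42 on array 3, and at 4.75 and 4.91 on the tartrazine arrays. All 20 were above both water arrays on Ponceau Red array 2 and tartrazine arrays 1 and 2, against 40.5%, 46.6% and 40.5% of all tested probe sets, and 4 were on Ponceau Red array 3, against 47.3%. Of the 12 hypodermis and cuticle genes 6 fell in each colorant, against 2.75% of all tested probe sets in Ponceau Red and 3.86% in tartrazine. The list median was below water on all 4 colorant arrays, at -2.84 and -1.84 on Ponceau Red arrays 2 and 3 and at -3.11 and -3.02 on the tartrazine arrays. Within this list col-19 was the 1 gene of 12 with a positive tartrazine difference, 4.23 ± 1.88 log2 (limma adjusted p = 0.219). Its signals were 8.12 and 2.40 in Ponceau Red, 6.93 and 7.91 in tartrazine and 3.19 and 3.20 in water. The sperm, intestine and muscle lists stood between -1.33 and 0.55 on the 4 colorant arrays. Their part in the histone differences was not tested.

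The authors' deposited table for tartrazine lists 1746 probe sets, of 29317 on the array, all at an unadjusted p under 0.05. Of the 49 histones 3 are among them, a share close to that of all probe sets. Its linear ratios of tartrazine over control were 0.528 for his-12, 0.551 for his-16 and 0.414 for his-14. In the authors' deposited table for Ponceau Red the ratios of the same genes were 0.613, 0.610 and 0.654. Over all 49 histones, that authors' deposited table has 35 ratios of Ponceau Red over control below 1, and 14 of the 49 ratios go against the sign of the difference found here. Among those 14, the authors' deposited table gives 0.605 for his-70, 0.745 for his-63, 1.30 for hil-3 and 1.504 for his-24, and for his-54, where the direction is the same, it gives 0.504. The arrays behind the authors' deposited tables are unknown here, and the cause of these differences was not tested. hil-3 and his-54, which fell in the fit above, are not in the authors' deposited table for tartrazine.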

How the data were processed

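Whole N2 worms in 3 groups of 2 arrays (100 µM Ponceau Red, 100 µM tartrazine, water) were compared. The authors deposited log2 signals computed with RMA, per the submitters' processing notes and the file headers; the RMA settings, array annotation release and genome build are not given in the sources used here. The authors also deposited tables that hold a linear ratio (fold) of treated over control and an unadjusted p-value, which were copied only for histone genes. Samples were grouped by their titles and table columns by their names.

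Of 29317 probe sets, 27568 with a gene name were tested (24021 named by accession and 3063 by symbol from a RefSeq table of assembly WBcel235, 484 by the deposited name alone), and 1749 were left out. A linear model with empirical Bayes moderation (limma 3.58.1, R 4.3.3) was fitted to all 6 arrays (two-sided, 3 residual and 1.79 prior degrees of freedom), with 3 contrasts, no block and no filter on low signal. A gene passed where its p, adjusted by the Benjamini-Hochberg method over all 27568, was under 0.05. Errors are standard errors of the fit. The script was tested on simulated data. Chromosome and neighbour order come from the RefSeq table. The class of his-39 and his-72 comes from a hand-written list.

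The members, classes and gene lists were chosen with earlier results of these data known. Genes described in the text are those that passed and all linker and H3.3-type genes. Per core class they also include the gene of highest mean signal and those of the highest and lowest differences from water in each colorant. The genes his-52, his-29, his-45 and his-64 and the related genes named were chosen after their values were seen. The labels do not say whether a trial number pairs samples across groups, and no pairing was used in the main fit. In the series matrix table, differences between trials 1 and 2 were correlated across probe sets. The correlations were 0.04 (Ponceau Red and water), 0.16 (tartrazine and water) and -0.04 (Ponceau Red and tartrazine). Such values cannot show whether the samples were paired.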

Additional observations from a re-analysis of the deposited data

How the results depend on the processing

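Leaving out each array in turn moved most results. For tartrazine against water the count of histones that passed ran from 0 to 9 higher and from 0 to 18 lower, and the same 9 and 18 passed on the 4 arrays alone. For Ponceau Red against water it ran from 0 to 7 higher and 0 to 10 lower, and for Ponceau Red against tartrazine from 0 to 9 and 0 to 8. Median log2 differences over all histones ran from -0.59 to -0.24 (Ponceau Red against water), -0.69 to -0.27 (tartrazine against water) and -0.12 to 0.28 (Ponceau Red against tartrazine). For Ponceau Red against water, class medians ran from -0.25 to 0.04 (H1), -0.78 to -0.41 (H2A), -0.996 to -0.27 (H2B), -1.06 to 0.43 (H3), 0.25 to 0.40 (H3.3) and -0.62 to -0.19 (H4). For tartrazine against water they ran from -0.80 to -0.61 (H1), -0.97 to -0.53 (H2A), -0.72 to -0.12 (H2B), -0.07 to 0.43 (H3), 0.40 to 0.76 (H3.3) and -0.92 to -0.32 (H4). For Ponceau Red against tartrazine they ran from 0.23 to 0.63 (H1), 0.02 to 0.30 (H2A), -0.60 to 0.036 (H2B), -0.87 to -0.05 (H3), -0.45 to -0.01 (H3.3) and -0.12 to 0.40 (H4). Over all 49 histones, 23 Ponceau Red differences and 4 tartrazine differences changed sign without some array. Among the genes followed through every alternative, these ranged in Ponceau Red from -0.59 to 2.95 (hil-4), -0.15 to 2.32 (hil-5), -0.35 to 0.070 (hil-6), -0.25 to 0.043 (his-24), -0.43 to 0.041 (his-47), -0.49 to 0.24 (his-61), -0.76 to 1.54 (his-58), -0.52 to 1.77 (his-48), -1.29 to 2.08 (his-63), -0.32 to 0.46 (his-72), -1.51 to 0.40 (his-71), -0.59 to 5.57 (his-74), -0.80 to 0.50 (his-31) and -0.53 to 0.26 (his-1). The others in Ponceau Red were his-29, his-30, his-35, his-37, his-41, his-42, his-45, his-57 and his-64. In tartrazine they ranged from -0.40 to 0.041 (hil-8), -0.21 to 0.11 (his-61) and -0.15 to 0.17 (his-49), and the other was his-6.

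Over all 49 histones, centring each array took the positive differences from 12 to 23 in Ponceau Red and from 14 to 17 in tartrazine. This is by construction, since centring adds the gap between array medians. Among the genes followed through every alternative, those turned positive in Ponceau Red were his-24 (0.12), hil-6 (0.082), hil-8 (0.015), his-47 (0.026), his-61 (0.095), his-31 (0.071) and his-1 (0.081). In tartrazine they were hil-8 (0.025) and his-61 (0.154). An intensity trend in eBayes gave 2 lower for Ponceau Red (3.23% of all tested probe sets) and 6 lower for tartrazine (4.94%). With it the adjusted p of hil-3 was 0.053. The series matrix table gave 11 lower for tartrazine (9.6% of all tested probe sets). Its median tartrazine differences were -0.89 over all histones, -1.23 for H2A and -1.06 for H4. Its medians for Ponceau Red against tartrazine were 0.52 over all histones, 0.61 for H2A, 0.11 for H2B and 0.57 for H4, and his-49 in tartrazine read -0.39. In this table the median of all tested probe sets was -0.24 in tartrazine against water, a smaller move from 0.02 than that of the histones, and the cause was not tested. A replicate block could not be fitted to the main table, whose columns carry no labelled trial. An alternative chosen after seeing the data put the labelled trial as a replicate block on the series matrix table. Its medians were those just given (-0.89, -1.23, -1.06, 0.52, 0.61, 0.11 and 0.57, and -0.39 for his-49). With this block 3 histones were lower in tartrazine, against 4.18% of all tested probe sets, and the adjusted p of his-54 was 0.065. The probe set of lowest mean per symbol changed no count of calls.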
